A study of Gallus gallus with 8 samples.

Results

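The BMP and TGF-beta pathway genes were followed in chick cells labelled as otic or epibranchial. They were taken by gene name from the deposited count table, as the BMP and GDF ligands, the TGF-beta, activin and inhibin ligands and LEFTY2, their receptors and coreceptor, the secreted antagonists and latency proteins, the SMAD proteins, the SMURF ligases and the ID genes. The names matched 58 of the 24356 genes of the table, of which 10501 carry only an Ensembl ID and could not be matched. Of these, 48 passed the filter on low counts, as did 16861 of all genes. The other 10 were not tested.

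Embryos were electroporated at the 3- to 5-somite stage per the sample labels, or up to 6 somites per the design text, with a plasmid in which either the otic enhancer Lmx1aE1 or the epibranchial enhancer Sox3U3 drives EGFP, and EGFP+ cells were sorted at somite stages 18 to 21. There were 4 libraries of Lmx1aE1-EGFP+ cells and 4 of Sox3U3-EGFP+ cells, each made from 2000 sorted cells and described in the methods as biological replicates. Both groups carried a reporter plasmid, and no cells without one were compared here. The study's text gives both the dissected ear region and whole heads as the tissue taken, and the sources used here do not say how many embryos each library holds. The label reports enhancer activity in electroporated cells, so a group is a sorted mixture and need not be 1 cell type. In such bulk libraries, fewer cells that express a gene and less RNA per cell cannot be told apart.

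BMP and TGF-beta ligands are secreted as dimers and bring type I and type II receptor kinases together. The type I receptor then phosphorylates SMAD1, SMAD5 and SMAD9 for BMPs, or SMAD2 and SMAD3 for TGF-beta and activin, and these enter the nucleus with SMAD4. Antagonists such as Noggin bind the ligand outside the cell, latency proteins hold TGF-beta in the matrix, and inhibitory SMADs and SMURF ligases dampen the signal inside it. In the chick head, BMP4 marks prospective sensory patches of the otic vesicle, and BMP7 from the pharyngeal endoderm promotes epibranchial neurogenesis.

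Library totals ran from 6559872 to 45183366 counts, with 2 deeper libraries (over 15000000 counts) and 2 shallower ones per group. Values below are counts scaled to library size with TMM factors on the CPM scale of edgeR, which can be compared between libraries for 1 gene but not between genes, since they are not divided by gene length. Fold changes, with the standard error (SE) of their log2 value, are Lmx1aE1-EGFP over Sox3U3-EGFP from edgeR's quasi-likelihood test, and adjusted p-values are Benjamini-Hochberg values over all 16861 genes. LMX1A was higher in Lmx1aE1-EGFP+ cells and SOX3 in Sox3U3-EGFP+ cells, with log2 fold changes of 1.25 (edgeR adjusted p = 0.000143) and -0.76 (edgeR adjusted p = 0.0131). The call of SOX3 was lost without Lmx1aE1-EGFP library 2 (edgeR adjusted p = 0.0547) and also in the fits of the deeper (0.0534) or the shallower (0.190) libraries alone. Of 13 listed markers of the epibranchial placode 9 were in the table, without PHOX2A, NEUROG2, FOXI3 and FOXI2. Of the 8 tested, 7 (87.5%) were higher in Sox3U3-EGFP+ cells, SOX3 among them, beside 11.3% of all tested genes. Of 12 tested markers of the otic vesicle, 4 (33.3%) were higher and 3 (25.0%) lower in Lmx1aE1-EGFP+ cells, beside 12.1% and 11.3% of all tested genes. Their summed level was 1140 to 1390 CPM in the Lmx1aE1-EGFP and 513 to 610 CPM in the Sox3U3-EGFP libraries. Most of that sum was SOX10 (706 to 948 CPM and 149 to 208 CPM), which is also on the neural crest list, and without it the otic markers summed to 431 to 489 CPM and 342 to 403 CPM. Markers of other cell types moved with the groups as well. Of the neural crest markers 14 of 15 were in the table, of which 11 (78.6%) were higher and 1 (7.14%) lower in Lmx1aE1-EGFP+ cells. Their sum reached 2190 to 2620 CPM in the Lmx1aE1-EGFP and 704 to 852 CPM in the Sox3U3-EGFP libraries. Of the epidermis markers 10 of 14 were in the table and 9 were tested, of which 7 (77.8%) were higher in Sox3U3-EGFP+ cells. Their sum reached 667 to 978 CPM in the Lmx1aE1-EGFP and 3480 to 4440 CPM in the Sox3U3-EGFP libraries. Most of that sum was CLDN1 (389 to 584 CPM and 2180 to 2810 CPM). The keratins KRT18 and KRT19 were among the called genes, while KRT5 and KRT15 were not called. Of the 14 neural tube markers in the table, 9 were tested and 2 of these (22.2%) were higher in Lmx1aE1-EGFP+ cells. They summed to 282 to 368 CPM in the Lmx1aE1-EGFP and 74.8 to 135 CPM in the Sox3U3-EGFP libraries. Most of the Lmx1aE1-EGFP sum was FABP7 (220 to 299 CPM, beside 34.9 to 98.6 CPM in the Sox3U3-EGFP libraries). FABP7 and ZIC1 passed the test, while SOX2, PAX6 and HES5 did not. No marker of these lists was at 3 counts or fewer in every library, and the part of these cells in the results that follow was not tested.

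The pathway as a whole did not lean to either cell population, and called members of different roles went in different directions. At an adjusted p under 0.05, 8 of the 48 tested members (16.7%) were higher in Lmx1aE1-EGFP+ cells, beside 12.1% of all tested genes, and 7 (14.6%) were higher in Sox3U3-EGFP+ cells, beside 11.3% of all tested genes. Of the members, 25 (52.1%) had a log2 fold change above 0, beside 46.6% of all tested genes. The median was 0.03 over the members and -0.04 over all tested genes. The 4 called ligands of the BMP and GDF group, BMP2, BMP4, BMP7 and GDF9, were all higher in Sox3U3-EGFP+ cells, as were the receptors TGFBR1 and TGFBR3 and the signal transducer SMAD1. The ligand TGFB3, the BMP antagonist NOG, the latency protein LTBP1, the receptors ACVR2A and BMPR1B, SMAD5 and the target genes ID2 and ID4 were higher in Lmx1aE1-EGFP+ cells.

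At an adjusted p under 0.05 together with an absolute log2 fold change over 1.5, 2 members (4.17%) were higher in Sox3U3-EGFP+ cells, BMP2 and GDF9, beside 2.47% of all tested genes. GDF9 met the low-count filter only through the Sox3U3-EGFP libraries, where it is higher, so it adds no support to this share. With at least 10 counts required in every library, GDF9 was not tested and 1 member remained, BMP2. In Lmx1aE1-EGFP+ cells 0 members passed both thresholds in edgeR, beside 0.712% of all tested genes. DESeq2 and limma-voom also gave 0, as did edgeR at an unadjusted p under 0.05 with the same fold threshold. In each of the 15 called members no library of one group fell within the range of the other, 8 with all Lmx1aE1-EGFP libraries above and 7 with all below. Such separation was found in 13.7% and 12.3% of all tested genes.

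**Figure D1:**
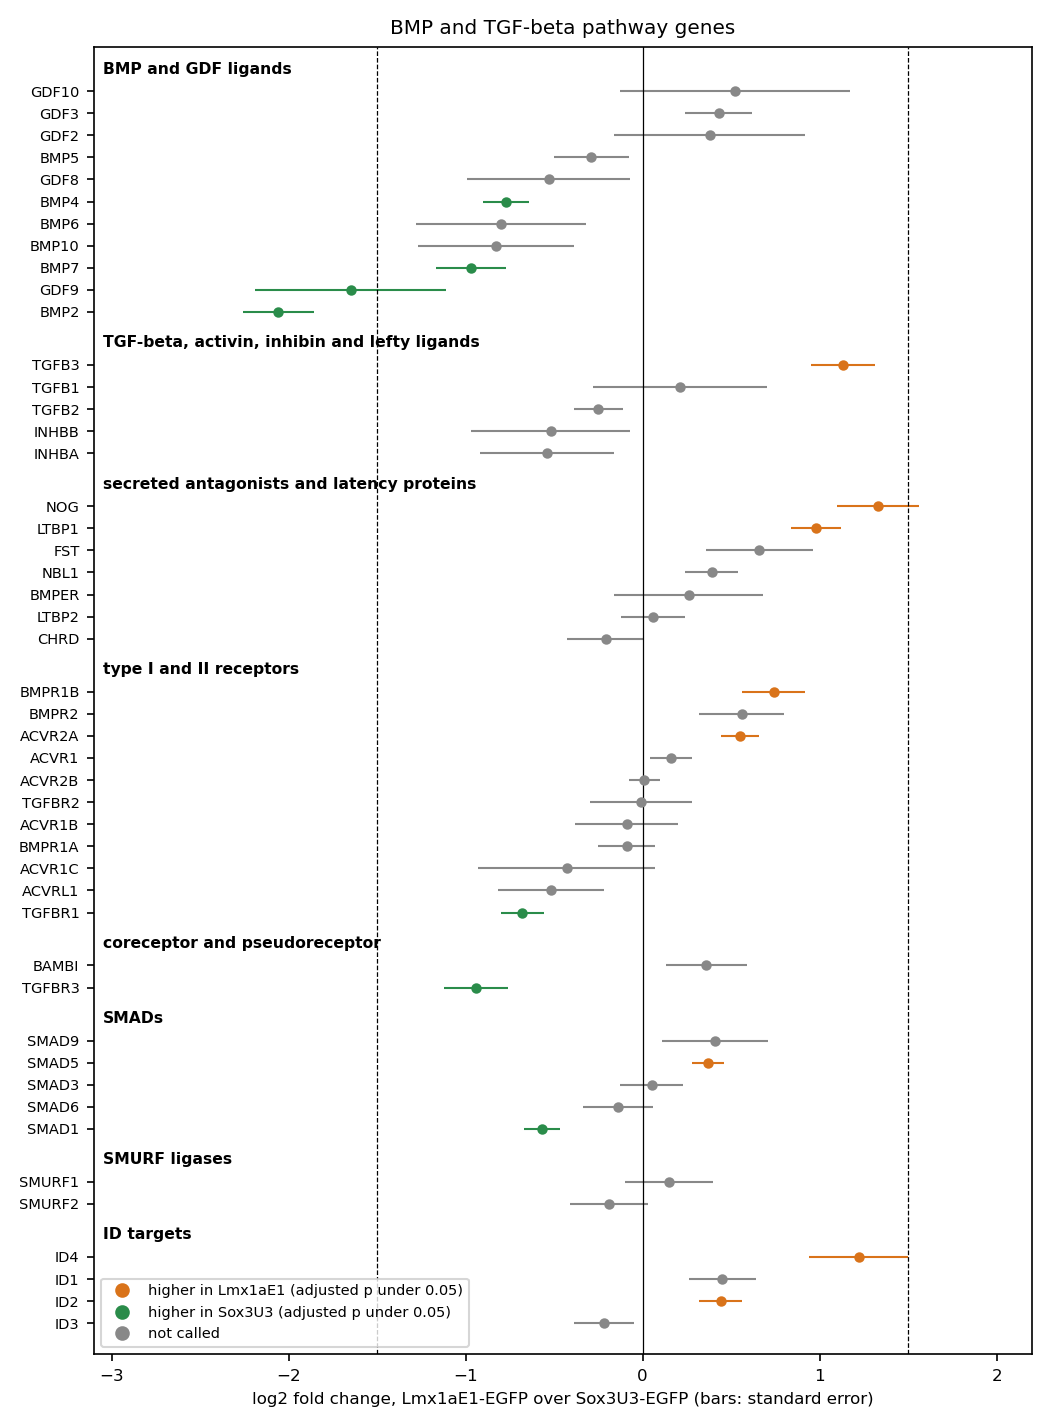
Log2 fold change (x axis, Lmx1aE1-EGFP over Sox3U3-EGFP, bars for the standard error, SE) of 47 of the 48 tested BMP and TGF-beta pathway genes, grouped by role, with dashed lines at 1.5 and -1.5. All 4 called BMP and GDF ligands lie left of 0, whereas NOG, LTBP1 and TGFB3 lie right of it, and BMP2 is the gene farthest from 0, at -2.06.

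Of the 17 BMP and GDF ligands, 11 were tested. In edgeR, DESeq2 and limma-voom, 4 were higher in Sox3U3-EGFP+ cells and 0 were higher in Lmx1aE1-EGFP+ cells. The 4 were 36.4% of those tested, beside 11.3% of all tested genes in edgeR, and the 0 stood beside 12.1%. GDF9, among the 4, met the low-count filter only through the Sox3U3-EGFP libraries. At an unadjusted p under 0.05 each of these tools gave 1 higher in Lmx1aE1-EGFP+ cells, GDF3 in edgeR. Of 10 tested markers of the pharyngeal endoderm, a known source of BMP7, 3 (30.0%) were higher in Sox3U3-EGFP+ cells, beside 11.3% of all tested genes. The list summed to 20.0 to 31.9 CPM in the Lmx1aE1-EGFP and 51.7 to 95.7 CPM in the Sox3U3-EGFP libraries. A large part of that difference was NKX2-6, with 0.393 to 1.76 CPM in the Lmx1aE1-EGFP and 16.4 to 29.9 CPM in the Sox3U3-EGFP libraries. SHH reached 22.3 CPM in Sox3U3-EGFP library 1 and at most 2.0 CPM in the rest of that group. FOXA2 and NKX2-3 were called as well, while PAX1, PAX9, HHEX, FOXA1, SHH, TTR and CLDN18 were not. The median log2 fold change of the 10 tested markers was -1.32, beside -0.04 over all tested genes. PAX9 (0.1) and CLDN18 (0.35) were the ones with positive values. Heart muscle markers, of which 3 of 12 tested were higher in Sox3U3-EGFP+ cells, summed to 57.0 to 92.3 CPM and 101 to 251 CPM. The part of either cell type in the ligand levels was not tested. BMP2 (ENSGALG00000029301), a classical BMP ligand, stood at 7.99, 6.97, 6.85 and 8.76 CPM in Lmx1aE1-EGFP libraries 1 to 4 and at 38.8, 32.1, 21.3 and 35.0 CPM in Sox3U3-EGFP libraries 1 to 4. All Sox3U3-EGFP libraries were thus well above the highest Lmx1aE1-EGFP library, and library 3 was the lowest among them. The means were 7.64 ± 0.904 CPM and 31.8 ± 7.51 CPM (SD, n = 4 each), a 4.16-fold difference with a log2 fold change of -2.06 (SE 0.20, edgeR adjusted p = 1.89e-06). It was past both thresholds under all 18 alternative settings, between -2.19 and -1.91.

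BMP4 (ENSGALG00000012429), the ligand that marks sensory patches of the otic vesicle, was found in both populations. It had 60.2, 57.1, 59.7 and 64.5 CPM in the Lmx1aE1-EGFP libraries and 114, 118, 80.6 and 97.7 CPM in the Sox3U3-EGFP libraries. Its level was nearly even among the Lmx1aE1-EGFP libraries and more spread among the Sox3U3-EGFP libraries, of which library 3 was again the lowest. The log2 fold change was -0.77 (SE 0.13, edgeR adjusted p = 0.000348). BMP7 (ENSGALG00000007668), another BMP ligand, had 8.64, 8.33, 9.68 and 12.7 CPM in the Lmx1aE1-EGFP libraries and 23.2, 22.4, 15.5 and 16.7 CPM in the Sox3U3-EGFP libraries, a log2 fold change of -0.97 (SE 0.20, edgeR adjusted p = 0.00203). Its change was of the same size within the shallower libraries, at -0.92, with an adjusted p of 0.0513 from edgeR.

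GDF9 (ENSGALG00000028407), a growth factor known from mammals for its role in the oocyte, rested on few counts. It had 7, 1, 12 and 5 counts in the Lmx1aE1-EGFP libraries, or 0.917, 0.152, 0.498 and 0.226 CPM. The Sox3U3-EGFP libraries held 53, 24, 11 and 19 counts, or 1.16, 1.30, 1.16 and 1.92 CPM. The groups did not overlap, but Lmx1aE1-EGFP library 1 lay close to the Sox3U3-EGFP libraries. The log2 fold change was -1.65 (SE 0.54, edgeR adjusted p = 0.0364). The call was lost without any single library except Lmx1aE1-EGFP library 1, with adjusted p-values of up to 0.102 from edgeR and log2 fold changes of -1.77 to -1.36, and it was lost with the replicate number as a block (edgeR adjusted p = 0.0826).

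The other 7 tested ligands of this group did not pass the test. GDF3 had 19.5 to 29.7 CPM in the Lmx1aE1-EGFP and 13.9 to 22.3 CPM in the Sox3U3-EGFP libraries (log2 fold change 0.43, SE 0.19, edgeR adjusted p = 0.109), and with the depth class as a block it was past the test at 0.43 (edgeR adjusted p = 0.0304). BMP5 had 9.22 to 11 CPM and 8.38 to 15.1 CPM (log2 fold change -0.29, SE 0.21). The remaining 5 had at most 4.02 CPM in any library and wide errors, namely BMP10 (log2 fold change -0.83, SE 0.44), BMP6 (-0.80, SE 0.48), GDF8 or myostatin (-0.53, SE 0.46), GDF10 (0.52, SE 0.65) and GDF2 (0.38, SE 0.54). BMP3, BMP15, GDF5, GDF6, GDF7 and GDF11 did not pass the filter on low counts, with at most 2.10 CPM in any library, reached by BMP15 in Sox3U3-EGFP library 3.

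The only called gene among the TGF-beta, activin, inhibin and lefty ligands went the other way. It was 20.0% of the 5 tested, beside 12.1% of all tested genes. TGFB3 (ENSGALG00000010346), a TGF-beta ligand, had 59.7, 79.1, 75.3 and 92.4 CPM in the Lmx1aE1-EGFP libraries and 37.8, 43.9, 35.1 and 22.9 CPM in the Sox3U3-EGFP libraries. Every Lmx1aE1-EGFP library was above every Sox3U3-EGFP library, of which library 4 was the lowest. The means were 76.6 ± 13.5 CPM and 34.9 ± 8.84 CPM (SD, n = 4 each), and the log2 fold change was 1.13 (SE 0.18, edgeR adjusted p = 0.000316). Its paralog TGFB2 had 22.5 to 27.2 CPM in the Lmx1aE1-EGFP and 27.1 to 35.0 CPM in the Sox3U3-EGFP libraries (log2 fold change -0.25, SE 0.14, edgeR adjusted p = 0.231). TGFB1 (log2 fold change 0.21, SE 0.49) and the activin subunits INHBA (-0.54, SE 0.38) and INHBB (-0.52, SE 0.45) had at most 3.45 CPM in any library and did not pass the test. INHBC, INHBE and LEFTY2 did not pass the filter, with at most 1.52 CPM in any library. The inhibin subunit gene INHA, which the name rule does not take, had 0.949 to 2.36 CPM and 1.89 to 3.62 CPM. Its log2 fold change was -0.83 (SE 0.37, edgeR adjusted p = 0.121).

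The secreted antagonists and latency proteins held 9 members, of which 8 were tested. In edgeR 2 (25.0%) were higher in the Lmx1aE1-EGFP group, beside 12.1% of all tested genes, and 0 in the Sox3U3-EGFP group, beside 11.3%. DESeq2 and limma-voom also gave 0 in Sox3U3-EGFP+ cells, as did an unadjusted p under 0.05 in all 3 tools. NOG (ENSGALG00000003114), which encodes the BMP antagonist Noggin, had 11, 8.03, 9.26 and 7.68 CPM in the Lmx1aE1-EGFP libraries and 3.38, 3.57, 3.47 and 3.85 CPM in the Sox3U3-EGFP libraries. The Sox3U3-EGFP libraries lay close together, and the lowest Lmx1aE1-EGFP library was well above them. The means were 8.99 ± 1.5 CPM and 3.57 ± 0.202 CPM (SD, n = 4 each), a 2.52-fold difference with a log2 fold change of 1.33 (SE 0.23, edgeR adjusted p = 0.000482). LTBP1 (ENSGALG00000010448), which holds latent TGF-beta in the matrix, had 125, 115, 116 and 114 CPM in the Lmx1aE1-EGFP libraries and 53.9, 76.6, 61.3 and 45.7 CPM in the Sox3U3-EGFP libraries (log2 fold change 0.98, SE 0.14, edgeR adjusted p = 8.22e-05). NOG and LTBP1 were past the test under all 18 alternative settings. Summed markers of neural crest and neural tube were also higher in the Lmx1aE1-EGFP libraries, those of the neural tube largely through FABP7. The part of such cells was not tested.

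FST, which encodes the activin and BMP antagonist Follistatin, showed a difference that depended on the test. It had 69.3, 70.2, 99.2 and 113 CPM in the Lmx1aE1-EGFP libraries and 68.4, 77.9, 46.9 and 29.6 CPM in the Sox3U3-EGFP libraries, so that the groups overlapped. Its log2 fold change was 0.66 (SE 0.30, edgeR adjusted p = 0.161), with an adjusted p of 0.0331 in DESeq2. With the depth class as a block it was 0.69 (edgeR adjusted p = 0.000697). The adjusted p from edgeR was 0.0264 within the deeper libraries, where the log2 fold change was 0.56, and 0.0245 within the shallower libraries, where it was 0.87. NBL1, a BMP antagonist of the DAN family, had 43.6 to 72.4 CPM and 40.4 to 47.2 CPM (log2 fold change 0.39, SE 0.15, edgeR adjusted p = 0.0709), and without Lmx1aE1-EGFP library 2 it was past the test at 0.51 (edgeR adjusted p = 0.0298). It also passed within the deeper libraries at 0.54 (edgeR adjusted p = 0.0322) and with the depth class as a block at 0.37 (edgeR adjusted p = 0.0239). CHRD, which encodes the BMP antagonist Chordin, had 4.70 to 7.2 CPM and 6.20 to 7.08 CPM (log2 fold change -0.21, SE 0.22). BMPER, a secreted BMP modulator (0.26, SE 0.42), and the matrix protein gene LTBP2 (0.06, SE 0.18) did not pass the test, and GREM1 stayed at or under 1.11 CPM and was not tested.

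**Figure D2:**
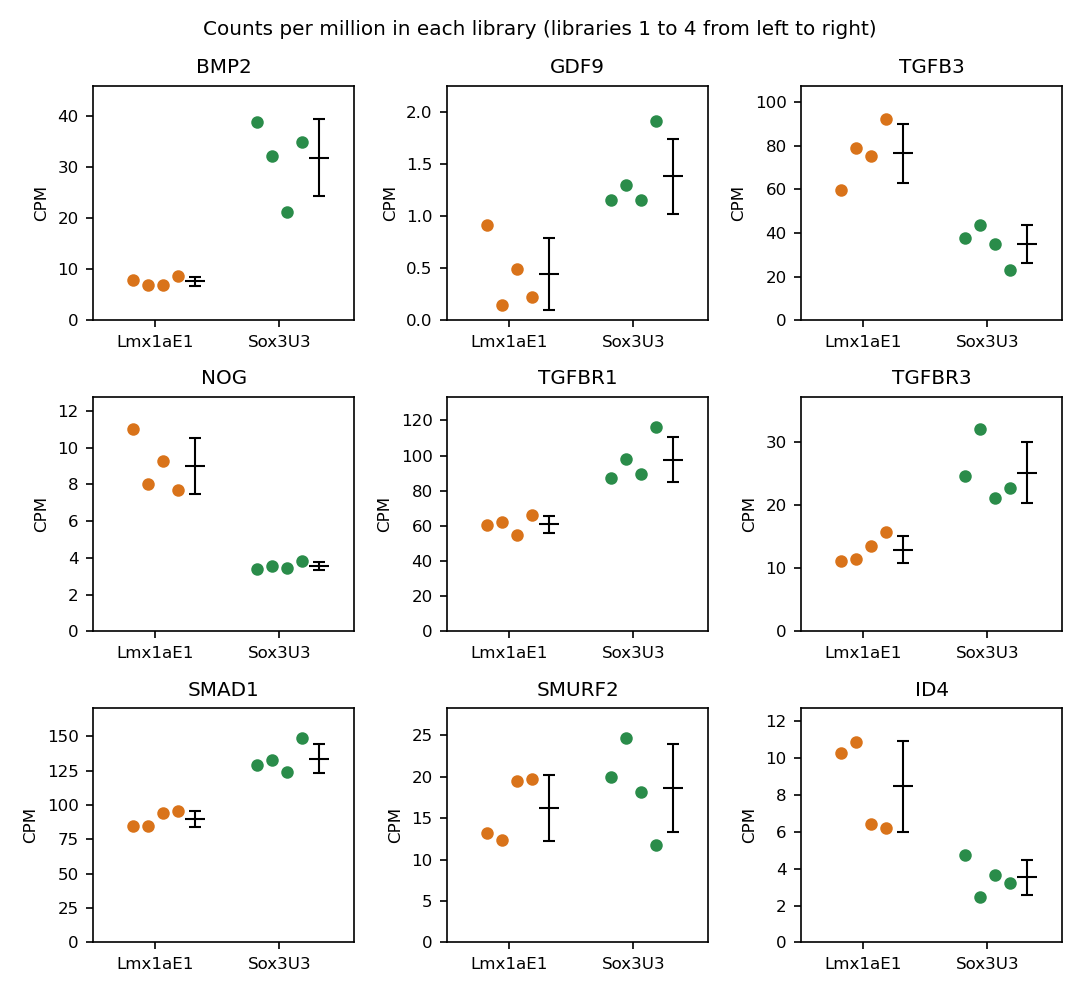
CPM (y axis, from 0) in each of the 4 Lmx1aE1-EGFP (orange) and 4 Sox3U3-EGFP (green) libraries for 9 members, with the mean and SD of each group in black. The groups do not overlap for any of the genes shown but SMURF2, and GDF9 is at 1.92 CPM or less throughout.

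Of the 11 type I and type II receptors, all of which were tested, 2 were higher in Lmx1aE1-EGFP+ cells, 1 was higher in Sox3U3-EGFP+ cells and 8 did not pass the test. These shares, 18.2% and 9.09%, stood beside 12.1% and 11.3% of all tested genes. TGFBR1 (ENSGALG00000033179), the type I receptor for TGF-beta, had 60.5, 62.0, 54.9 and 66.5 CPM in the Lmx1aE1-EGFP libraries and 87.1, 98.3, 89.7 and 116 CPM in the Sox3U3-EGFP libraries. All Sox3U3-EGFP libraries were higher, and library 4 was the highest. The log2 fold change was -0.68 (SE 0.12, edgeR adjusted p = 0.000606). Its partner TGFBR2, the type II receptor, had 3.03 to 7.5 CPM and 4.15 to 6.20 CPM, with a log2 fold change of -0.01 (SE 0.29). ACVR2A, a type II receptor for activins and BMPs, had 139 to 167 CPM in the Lmx1aE1-EGFP and 93.8 to 124 CPM in the Sox3U3-EGFP libraries (log2 fold change 0.55, SE 0.11, edgeR adjusted p = 0.00182). BMPR1B, a type I BMP receptor, had 18.1 to 26.4 CPM and 10.1 to 14.2 CPM (log2 fold change 0.74, SE 0.18, edgeR adjusted p = 0.00705).

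The other type I BMP receptors were less different. BMPR1A had 40.8 to 64.1 CPM and 45.5 to 61.1 CPM (log2 fold change -0.09, SE 0.16), and ACVR1 had 95.1 to 117 CPM and 80.7 to 107 CPM (log2 fold change 0.16, SE 0.12). The type II receptor ACVR2B had 220 to 244 CPM and 209 to 251 CPM, with a log2 fold change of 0.01 and the small SE of 0.09. BMPR2, the type II receptor for BMPs, had a log2 fold change of 0.56 (SE 0.24, edgeR adjusted p = 0.111) and was past the test with limma-voom (0.58, adjusted p = 0.0479) and without Lmx1aE1-EGFP library 4 (0.75, edgeR adjusted p = 0.0216). ACVRL1, a receptor known from the endothelium (log2 fold change -0.52, SE 0.30), ACVR1C (-0.43, SE 0.50) and ACVR1B (-0.09, SE 0.29), both receptors of the activin and Nodal branch, had at most 7.98 CPM in any library. Of 12 tested markers of endothelium and blood, 2 (16.7%), KDR and EGFL7, were higher in Sox3U3-EGFP+ cells, beside 11.3% of all tested genes. The summed markers overlapped, with 103 to 794 CPM in the Lmx1aE1-EGFP and 263 to 408 CPM in the Sox3U3-EGFP libraries. Much of the wide Lmx1aE1-EGFP range came from the haemoglobin genes HBZ (1.45 to 371 CPM) and HBA1 (0.789 to 207 CPM). The median log2 fold change of the 12 markers was -0.58. The part of such cells was not tested.

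TGFBR3 (ENSGALG00000006038), the coreceptor betaglycan that presents TGF-beta to its receptors, had 11.1, 11.5, 13.5 and 15.8 CPM in the Lmx1aE1-EGFP libraries and 24.7, 32.1, 21.1 and 22.7 CPM in the Sox3U3-EGFP libraries. All Sox3U3-EGFP libraries were higher. The log2 fold change was -0.94 (SE 0.18, edgeR adjusted p = 0.00129), and it was past the test under all 18 alternative settings. BAMBI, which encodes a receptor-like protein without a kinase domain and is itself induced by BMP, had 30.4, 28.0, 19.4 and 19.7 CPM in the Lmx1aE1-EGFP and 26.5, 19.0, 17.7 and 11 CPM in the Sox3U3-EGFP libraries. The groups overlapped, and the log2 fold change was 0.36 (SE 0.23, edgeR adjusted p = 0.288). Within the 4 shallower libraries it was 1.02 (edgeR adjusted p = 0.0317) and within the 4 deeper libraries -0.20 (edgeR adjusted p = 0.623). The difference between these was -1.25 (SE 0.35), which in edgeR's test of group by depth class had an unadjusted p of 0.00218 and an adjusted p of 1.0 over all genes.

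The closely related transducers of the BMP signal differed in opposite directions. SMAD1 (ENSGALG00000009977) had 85.0, 84.4, 94.2 and 95.7 CPM in the Lmx1aE1-EGFP libraries and 129, 133, 124 and 149 CPM in the Sox3U3-EGFP libraries, with a log2 fold change of -0.57 (SE 0.10, edgeR adjusted p = 0.000766). SMAD5 (ENSGALG00000006309) had 205, 203, 189 and 202 CPM in the Lmx1aE1-EGFP and 151, 163, 154 and 153 CPM in the Sox3U3-EGFP libraries, with a log2 fold change of 0.37 (SE 0.09, edgeR adjusted p = 0.00625). Both differences were small and exceeded the narrow spread of the libraries. Within the 4 deeper libraries they kept their sign, at -0.44 and 0.34, with adjusted p-values of 0.0645 and 0.152 from edgeR. SMAD9, the third transducer of the BMP branch, had a log2 fold change of 0.41 (SE 0.30), and was lowest in Sox3U3-EGFP library 3, at 2.63 CPM, against 7.59 to 10.7 CPM elsewhere. SMAD3, of the TGF-beta branch, had 12.5 to 19.5 CPM and 12.5 to 16.7 CPM (log2 fold change 0.05, SE 0.18), and the inhibitory SMAD6 had 9.26 to 14.1 CPM and 10.1 to 14.4 CPM (log2 fold change -0.14, SE 0.20). The table names SMAD2 as SMAD2Z, which the name rule does not take. SMAD2Z had 67.6 to 96.5 CPM and 67.5 to 78.8 CPM (log2 fold change 0.03, SE 0.13). The inhibitory SMAD gene Smad7b, also outside the rule, had 1.36 to 6.82 CPM and 1.47 to 3.46 CPM. Its log2 fold change was 0.97 (SE 0.44, edgeR adjusted p = 0.125).

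The ubiquitin ligases that target SMADs and receptors for degradation did not pass the test. SMURF2 had 13.2, 12.3, 19.5 and 19.7 CPM in the Lmx1aE1-EGFP libraries and 20.0, 24.6, 18.2 and 11.7 CPM in the Sox3U3-EGFP libraries, with overlapping groups and a log2 fold change of -0.19 (SE 0.22, edgeR adjusted p = 0.571). SMURF1 had 6.42 to 9.71 CPM and 4.94 to 11.2 CPM (log2 fold change 0.15, SE 0.25).

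**Figure D3:**
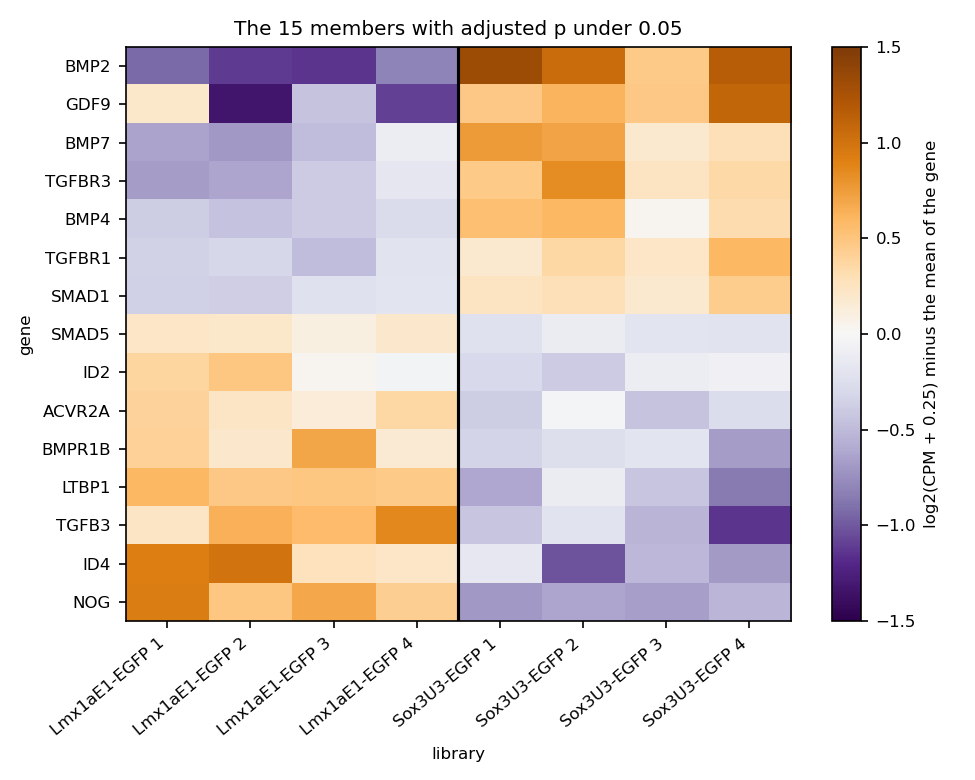
Log2(CPM + 0.25) minus the mean of the gene (colour, orange above and purple below the mean) for the 15 called members in each of the 8 libraries, ordered by fold change. The 7 genes from BMP2 to SMAD1 are higher in the Sox3U3-EGFP libraries and the 8 from SMAD5 to NOG in the Lmx1aE1-EGFP libraries, and ID4 is higher in Lmx1aE1-EGFP libraries 1 and 2 than in 3 and 4.

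The ID genes encode helix-loop-helix proteins without a DNA-binding domain and are induced by BMP signals in many tissues. Of the 4, 2 were higher in Lmx1aE1-EGFP+ cells with edgeR, DESeq2 and limma-voom, beside 12.1% of all tested genes in edgeR. In the other direction each tool gave 0, also at an unadjusted p under 0.05. At the adjusted p this 0 stood beside 11.3% of all tested genes in edgeR, and with 4 genes it says little. ID4 (ENSGALG00000039474) had 10.3, 10.9, 6.44 and 6.23 CPM in the Lmx1aE1-EGFP libraries and 4.76, 2.49, 3.68 and 3.24 CPM in the Sox3U3-EGFP libraries. The groups did not overlap, and within the Lmx1aE1-EGFP group the shallower libraries 1 and 2 were higher than the deeper libraries 3 and 4. The log2 fold change was 1.22 (SE 0.28, edgeR adjusted p = 0.00487). It was 1.62 within the shallower libraries (edgeR adjusted p = 0.0137) and 0.80 within the deeper libraries (edgeR adjusted p = 0.166), and the difference between these had an unadjusted p of 0.118 and an adjusted p of 1.0 in edgeR. The part of depth in the level of ID4 was not tested further.

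ID2 (ENSGALG00000035016) had 675, 727, 528 and 503 CPM in the Lmx1aE1-EGFP libraries and 421, 393, 482 and 494 CPM in the Sox3U3-EGFP libraries. The lowest Lmx1aE1-EGFP and the highest Sox3U3-EGFP library lay close together. The log2 fold change was 0.44 (SE 0.12, edgeR adjusted p = 0.0133). With the replicate number as a block its adjusted p was 0.0603, and within the deeper libraries 0.108. ID1 had 432 to 550 CPM in the Lmx1aE1-EGFP libraries and 221 to 449 CPM in the Sox3U3-EGFP libraries, where library 4 was the lowest (log2 fold change 0.45, SE 0.19, edgeR adjusted p = 0.124). With the replicate number as a block ID1 was past the test (0.50, edgeR adjusted p = 0.0241). ID3 had 82.5 to 108 CPM and 78.2 to 153 CPM and a log2 fold change of -0.22 (SE 0.17, edgeR adjusted p = 0.369). No ID gene thus passed the test in the direction of BMP2, BMP4 and BMP7, though only 4 ID genes were tested.

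Ratios of counts within a library do not depend on the scaling of the libraries, and gene length cancels when such a ratio is compared between libraries. The pairs were chosen after the values were seen, so they are a description with no test. In BMP4 to NOG, BMP2 to NOG and SMAD1 to SMAD5, both genes already differed without overlap and in opposite directions. These ratios therefore could not overlap and add no further result. The count ratio of BMP4 to NOG was 5.48 to 8.39 in the Lmx1aE1-EGFP and 23.2 to 33.7 in the Sox3U3-EGFP libraries. That of BMP2 to NOG was 0.726 to 1.14 and 6.15 to 11.5, respectively. The ratio of SMAD1 to SMAD5 was 0.414 to 0.498 and 0.806 to 0.973, that of TGFB3 to TGFB2 was 2.36 to 4.11 and 0.843 to 1.45, and that of ID4 to ID3 was 0.0649 to 0.103 and 0.0211 to 0.0429. The ratio of BMPR1B to BMPR1A overlapped between the groups, with 0.282 to 0.647 and 0.213 to 0.312, since Lmx1aE1-EGFP library 4 fell among the Sox3U3-EGFP libraries. TGFB3, ID4 and BMPR1B, the first genes of these last pairs, also already differed without overlap.

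**Figure D4:**
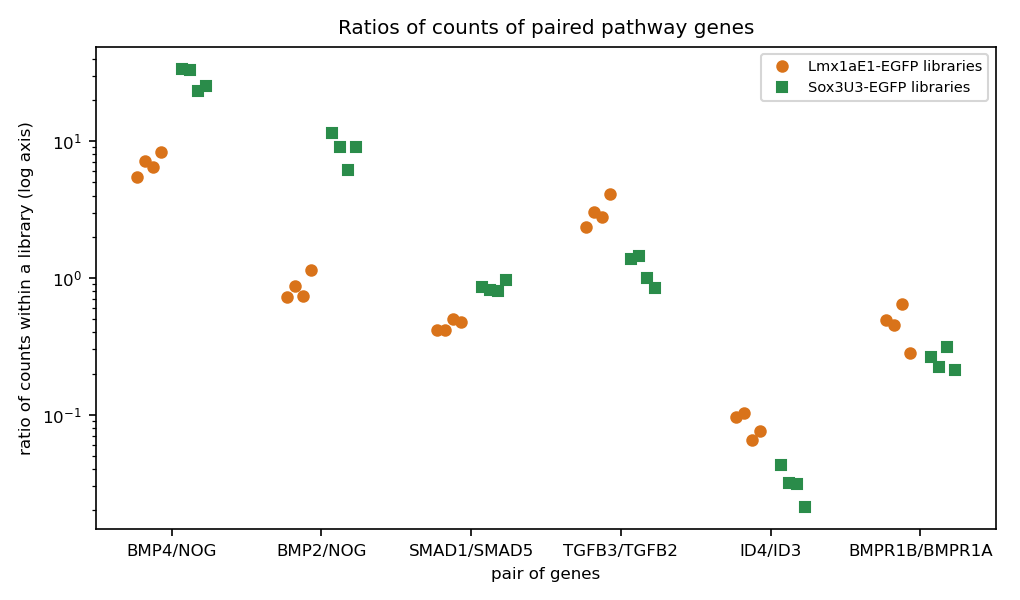
Ratio of the counts of 2 genes within each library (y axis, log scale) for 6 pairs of members, with Lmx1aE1-EGFP libraries as orange circles and Sox3U3-EGFP libraries as green squares. The BMP4 to NOG ratio is at most 8.39 in the Lmx1aE1-EGFP libraries and at least 23.2 in the Sox3U3-EGFP libraries. It could not overlap, since BMP4 and NOG each differ without overlap and in opposite directions.

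Other genes of the pathway were read from 3 lists of extracellular, receptor and intracellular components that the name rule does not take. Of 74 listed genes 57 were in the table and 54 were tested, of which 7 were higher in the Lmx1aE1-EGFP group and 11 in the Sox3U3-EGFP group, with a median log2 fold change of -0.06. These were 13.0% and 20.4% of the tested genes of the lists, beside 12.1% and 11.3% of all tested genes. Those past both thresholds were 4 extracellular genes higher in Sox3U3-EGFP+ cells and 1 intracellular gene higher in Lmx1aE1-EGFP+ cells. Of these 4, FSTL3 and NRROS met the low-count filter only through the Sox3U3-EGFP libraries, so they add no support to the count. SOSTDC1, a secreted BMP and WNT antagonist, had 6.67 to 7.99 CPM in the Lmx1aE1-EGFP and 29.0 to 39.2 CPM in the Sox3U3-EGFP libraries (log2 fold change -2.16, SE 0.17, edgeR adjusted p = 1.88e-07). This antagonist was thus higher where BMP2 was higher, the opposite of NOG. TLL2, a protease of the tolloid family, had 3.01 to 4.79 CPM and 13.7 to 20.5 CPM (log2 fold change -2.17, SE 0.22). FSTL3, an activin-binding protein (-1.75, SE 0.43), and NRROS, which holds latent TGF-beta at the cell surface of myeloid cells in mice (-2.38, SE 0.50), were under 1 CPM in every Lmx1aE1-EGFP library and at most 4.45 CPM in any Sox3U3-EGFP library. FSTL3 was not past the test within the deeper libraries (-1.32, edgeR adjusted p = 0.164), nor NRROS within the shallower libraries (-2.27, edgeR adjusted p = 0.0555). DACT2, which in zebrafish promotes the degradation of Nodal receptors, had 94.1 to 118 CPM in the Lmx1aE1-EGFP and 15.9 to 29.1 CPM in the Sox3U3-EGFP libraries (log2 fold change 2.10, SE 0.16, edgeR adjusted p = 1.81e-07).

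Genes known to respond to BMP elsewhere were called in both directions. Of 15 tested genes outside the name rule, 4 were higher in Lmx1aE1-EGFP+ cells (TFAP2A, DLX5, TBX3 and ATOH8, with log2 fold changes of 0.73 to 1.22) and 4 in Sox3U3-EGFP+ cells, with a median log2 fold change of -0.22. Each direction held 26.7% of them, beside 12.1% and 11.3% of all tested genes. GATA3, a transcription factor that is also on the epibranchial marker list, had 30.0 to 41.1 CPM in the Lmx1aE1-EGFP and 152 to 204 CPM in the Sox3U3-EGFP libraries (log2 fold change -2.32, SE 0.13, edgeR adjusted p = 5.26e-09). HAND1 had at most 0.542 CPM and 1.35 to 3.01 CPM, respectively (log2 fold change -2.84, SE 0.58), and the summed heart muscle markers were higher in the Sox3U3-EGFP libraries as well. HAND1 met the low-count filter only through the Sox3U3-EGFP libraries. HEY1 and HEY2 had log2 fold changes of -0.80 and -1.05. Among the genes not called, MSX1 had 61.9 to 190 CPM and 12.2 to 58.1 CPM. Its log2 fold change was 1.77 (SE 0.64, edgeR adjusted p = 0.0978). MSX2 (0.83, SE 0.40) and TBX2 (0.53, SE 0.32) were positive too, while HAND2, GATA2, SPRY1 and DLX3 were negative. Of 12 tested genes known to respond to TGF-beta, 3 were higher in Lmx1aE1-EGFP+ cells, namely the matrix genes TNC (1.47), COL1A1 (1.40) and POSTN (1.37), and 3 in Sox3U3-EGFP+ cells, namely FN1 (-0.84), ACTA2 (-0.71) and SKIL (-0.60), or 25.0% in each direction. COL1A1 and POSTN are also on the mesenchyme marker list. Of its 12 tested genes 7 (58.3%) were higher in Lmx1aE1-EGFP+ cells, beside 12.1% of all tested genes. The list summed to 1120 to 1280 CPM in the Lmx1aE1-EGFP and 836 to 1500 CPM in the Sox3U3-EGFP libraries. A large part of that sum was COL1A2 (555 to 709 CPM and 461 to 857 CPM), with a log2 fold change of -0.02. The part of such cells was not tested.

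Of the members, 4 pairs are next to each other among the protein-coding genes of RefSeq (GRCg7b), to which 57 of the 58 names could be matched by symbol or synonym. They are SMAD6 and SMAD3, ACVR1B and ACVRL1, GDF2 and GDF10, and ACVR1C and ACVR1. No gene of these pairs passed the test.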

How the data were processed

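Bulk RNAseq of sorted EGFP+ cells was analysed from the raw read counts per Ensembl gene that the authors deposited for all 8 libraries. Per the labels and methods, paired reads were trimmed with Trim Galore, aligned to galGal6 with STAR and counted with featureCounts. The strand setting is not given in the sources used here, so counts of overlapping genes are uncertain.

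edgeR 4.0.16 (R 4.3.3) was used to remove genes of low count (filterByExpr), scale the libraries (TMM) and fit robust quasi-likelihood models on the group alone. That filter keeps a gene that reaches its level in as many libraries as a group holds, so a single group can suffice. Benjamini-Hochberg adjustment ran over 16861 genes. Thresholds were an adjusted p of 0.05 and, where stated, an absolute log2 fold change of 1.5. Standard errors came from the fold change and F statistic. Alternatives were DESeq2 1.42.0 and limma-voom (limma 3.58.1, quality weights), RLE factors or no scaling factors, the filter dropped or set to 10 counts in each library, the replicate number or depth class as a block, the deeper or shallower libraries only, and each library left out. The test of group by depth class was added after the data were seen. The fits were tested on simulated data.

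The members and lists were chosen with earlier results of these data known. Values in every library are given for members past an adjusted p of 0.05 with an absolute log2 fold change over 1, and otherwise for the member of a role with the smallest adjusted p, and were added for other called members, for FST and for BAMBI. Genes of the other lists are named where past both thresholds. The other BMP-responsive genes and the TGF-beta-responsive genes were named after their values were seen. So were SMAD2Z, Smad7b, INHA and the cell type markers other than LMX1A and SOX3. Library pairs were checked for duplicates (chi-square per degree of freedom at least 3.60 in 28 pairs). One tested member that was not called is counted but not reported here by name. No genome or sequence was used.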

Additional observations from a re-analysis of the deposited data

Results flagged for a closer look

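Among 96 groups of 4 libraries, the tested members in either reporter group, 2 held a library far from the others on the log2 scale, where chance gives about 4.8 at 1 in 20. GDF8 was lowest in Lmx1aE1-EGFP library 1, at 0.262 CPM with the next library at 1.25 CPM (gap over range 0.877). BMPR1A was highest in Lmx1aE1-EGFP library 4, at 64.1 CPM with the next library at 43.7 CPM (gap over range 0.846). Neither gene passed the test between the groups.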

How the results depend on the processing

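Of the 15 called members, 7 stayed past the adjusted p threshold under all alternatives run (BMP2, BMP4, LTBP1, NOG, TGFB3, TGFBR1 and TGFBR3), and none changed sign. With a library left out, 8 to 9 members were higher in Lmx1aE1-EGFP+ cells and 6 to 7 in Sox3U3-EGFP+ cells, and GDF9 was the only called member to lose its call. Within the deeper libraries, 4 libraries in all, ID2, ID4, SMAD1, SMAD5, ACVR2A and GDF9 were not past the threshold, and within the shallower ones BMP7, BMPR1B and GDF9 were not. Fewer samples entered these fits. Pairing by the numbers in the titles could not be judged. Correlations were -0.233 to 0.046 between same-numbered libraries and -0.155 to 0.309 between the others. Each same-numbered pair joined a deeper and a shallower library, so number and depth could not be told apart. The highest value, 0.309, was between 2 deeper libraries, Lmx1aE1-EGFP library 4 and Sox3U3-EGFP library 2. With this layout and 4 libraries per group, the correlations can neither show nor exclude a pairing. With the replicate block, 8 and 6 members were called, and ID2 and GDF9 were not. With the depth class as a block, 11 and 7 members were called, as FST, NBL1 and GDF3 were added.

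The 2 members past both thresholds in Sox3U3-EGFP+ cells became 1 with the low-count filter dropped, a minimum of 10 counts in each library, the replicate block, the deeper or the shallower libraries only, and 1 to 2 with a library left out. BMP2 was past both in each of these fits. Within the shallower libraries ID4 made 1 member past both in Lmx1aE1-EGFP+ cells, in place of 0. The member median of 0.03 became -0.08 with no filter and -0.07 within the shallower libraries. Over all genes, 225 in place of 416 were past both thresholds in Sox3U3-EGFP+ cells with a minimum of 10 counts in each library, where fewer genes were tested, and 198 in place of 120 were past both in Lmx1aE1-EGFP+ cells within the shallower libraries. At the adjusted p alone, 1308 and 1068 genes were called within the deeper and 1155 and 1064 within the shallower libraries, in place of 2033 and 1904. Of the 3 lists of other pathway genes, 5 in place of 11 were higher in Sox3U3-EGFP+ cells within the shallower libraries.

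Of the 33 members that did not pass the test, 8 took the other sign in some fit, none of them called there. SMAD3 was at -0.002 with library size only, -0.22 within the deeper libraries and -0.06 to 0.14 with a library left out. TGFBR2 was at 0.01 with RLE factors, 0.01 with DESeq2, 0.03 with no filter, 0.33 within the deeper libraries and -0.24 to 0.18 with a library left out. ACVR2B was at -0.04 with library size only, -0.02 with at least 10 counts and -0.03 to 0.06 with a library left out. LTBP2 was at -0.11 and SMURF1 at -0.08 within the shallower libraries, BAMBI was at -0.20 within the deeper ones, and with a library left out LTBP2 ran from -0.09 to 0.17, ACVR1B from -0.26 to 0.04 and BMPR1A from -0.28 to 0.01. Of these 33, 6 passed the test in some fit (GDF3, ID1, BAMBI, FST, NBL1 and BMPR2). Where not stated, the cause was not tested.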
